A study of Nothobranchius furzeri with 24 samples.

Results

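The genes described here rose early in the adult brain of wild turquoise killifish (Nothobranchius furzeri) and then stayed level. They are the 150 genes with the largest rise from 39 to 73 days post hatch (dph) among 454 that changed little from 73 to 108 dph, out of 26739 genes in the table. At each age 4 female and 4 male brains were sequenced, for 24 poly(A) RNA libraries in 6 groups, 39 dph female, 39 dph male, 73 dph female, 73 dph male, 108 dph female and 108 dph male. All fish were untreated animals of the wild population A41, labelled MZM_A41, netted in natural ponds, and each library came from 1 whole brain. Each age is a different set of fish caught at its own point of the season, and the effects of age and of season cannot be told apart. In a whole brain, more cells of a type and more RNA per cell cannot be told apart either.

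Members were chosen from the reads per 1000000 reads assigned to genes (RPM). For each gene the median of log2(RPM + 0.5) over the 8 fish of an age was taken, the early step being 73 minus 39 dph and the late step 108 minus 73 dph. A gene needed a median of at least 1 RPM at each age, which 16954 genes had, an early step of at least 0.4, a late step between -0.15 and 0.15 and an early step above 0 in the females and in the males alone. The early and late steps given below therefore describe the choice and carry no test.

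The turquoise killifish lives in temporary savannah ponds and completes its life within a rainy season. The paper places all the ages sampled in adult life, after the wild fish had stopped growing. Several members act on chromatin. Polycomb complexes keep genes silent by modifying histones, variant complexes are named after their PCGF subunit, and histone demethylases of the KDM families remove methyl groups from histone H3. Other members process stalled or damaged DNA, degrade heme, or receive Hedgehog signals.

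The early step of the members had a median of 0.72 on the log2 scale and ran from 0.58 to 2.16, and the late step had a median of 0.03. Over the 16954 genes that reached 1 RPM the medians were 0.01 and 0.0021. At least a doubling was seen in 16 members on the log2(RPM + 0.5) scale. The late step was above 0 in 92 members and below 0 in 58. Members were less abundant than the other genes that reached 1 RPM, with a median level of 15.1 RPM at 73 dph against 22.3 RPM, and their median SD between fish of that age was 0.28 on the log2 scale against 0.18.

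**Figure D1:**
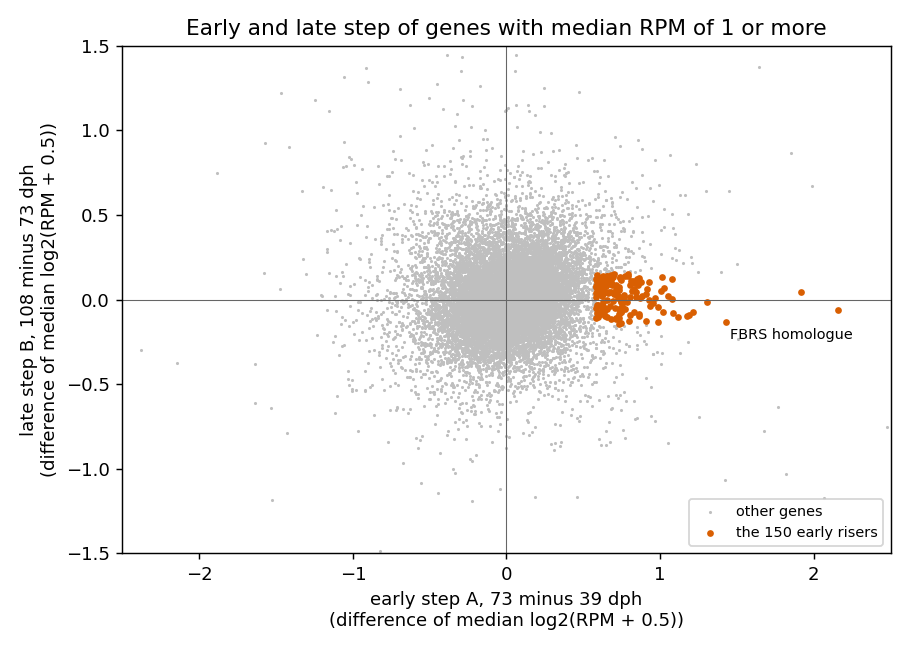
Early step (x axis) and late step (y axis) of genes with a median of at least 1 RPM at each age, both as differences of median log2(RPM + 0.5) over 8 fish per age. The 150 early risers (orange) form the band to the right between -0.15 and 0.15 on the y axis, led by the FBRS homologue at 2.16. Of the 16954 genes, 11 lie outside the drawn range.

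Every fish of 73 and 108 dph lay above every fish of 39 dph in 34 of the 150 members. This held for 2.16% of the genes that reached 1 RPM, and the choice of members fixes most of the difference. Counted per fish, the median over the members, relative to each gene's median at 39 dph, ran from -0.04 to 0.11 on the log2 scale at 39 dph, with a median of -0.0058. It ran from 0.66 to 0.77 with a median of 0.73 at 73 dph, and from 0.67 to 0.80 with a median of 0.78 at 108 dph. The fish of 73 and 108 dph were interleaved and all of them lay above the young fish, an order that the choice of members largely sets. Together the members took a median of 0.329%, 0.575% and 0.589% of the reads in genes at the 3 ages.

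**Figure D2:**
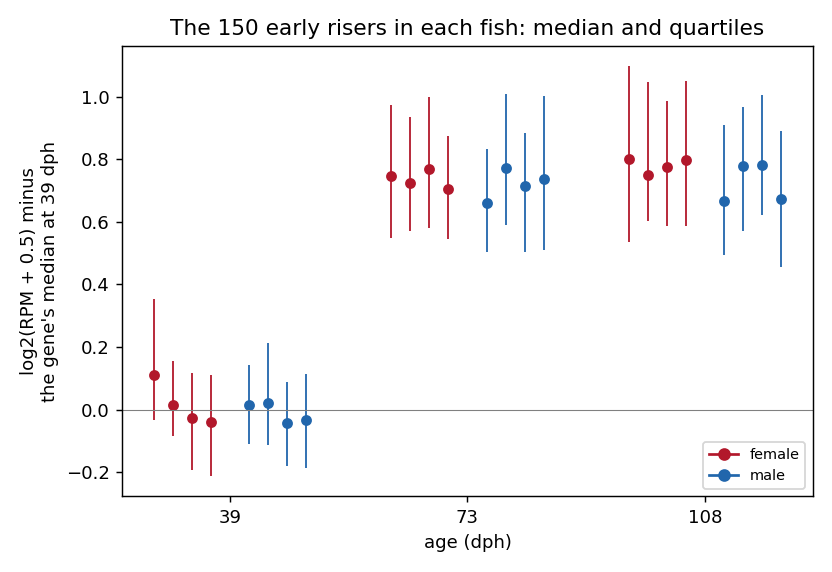
Median (points) and quartiles (lines) over the 150 early risers in each of 24 fish, as log2(RPM + 0.5) minus the gene's median at 39 dph, by age in dph, with females in red and males in blue. The points of 39 dph lie between -0.04 and 0.11 and those of the older fish between 0.66 and 0.80.

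In an edgeR quasi-likelihood fit over 19358 genes with age and sex as terms, 128 members were called higher at 73 than at 39 dph at a false discovery rate (FDR) below 0.05, where 10.4% of all genes were. None was called between 73 and 108 dph, where 9.27% of all genes were called in either direction. An unadjusted p below 0.05 was found at that step for 5 members and for 23.6% of all genes. DESeq2 also called none at that step. At 108 against 39 dph 135 members were called higher, beside 19% of all genes. These counts follow from the rule, and nothing is read from them. The fitted change from 39 to 73 dph was above 0 in 148 members and below 0 in EYA4 and Nfu_g_1_021471.

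Of the members, 102 carried a gene name, an annotation symbol or the human match, in the tables of the study, and 48 did not. These tables name mostly genes that the study had called, so the named members are not a random draw. For the members described below, values are the lowest, the median and the highest of the 8 fish of an age. They are ordered by role, and the roles were assigned after the values were seen.

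The gene that rose most was a homologue of FBRS (AL929039.2, Nfu_g_1_000909). FBRS, fibrosin, is a subunit of variant Polycomb complexes. Its levels were 128, 143 and 163 RPM at 39 dph, 563, 639.6 and 779 RPM at 73 dph and 414, 613 and 732 RPM at 108 dph. All 16 older fish lay above the 8 young ones, the lowest older fish at 414 RPM. The gene rose 4.46-fold on the log2(RPM + 0.5) scale, by 2.07 log2 in females and 2.23 in males. PCGF3, the ring finger subunit of a variant Polycomb complex, stood at 69.7, 74.5 and 93.2 RPM at 39 dph, 111, 127 and 151 RPM at 73 dph and 107, 129 and 147 RPM at 108 dph. Its young fish also lay below all 16 older ones.

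A pair of histone demethylases were members. KDM6BB (Nfu_g_1_005157), given UTY as its human match in the study's tables and belonging to the KDM6 family that removes methyl groups from lysine 27 of histone H3, measured 118, 139 and 169.6 RPM at 39 dph, 265, 317 and 376 RPM at 73 dph and 237, 297 and 358 RPM at 108 dph. The groups of 39 dph and of the later ages did not overlap. KDM4A (Nfu_g_1_000902), which acts on lysines 9 and 36 of histone H3, measured 36.1, 50.6 and 61.3 RPM at 39 dph, 30.7, 79.7 and 112 RPM at 73 dph and 42.2, 82.2 and 99.8 RPM at 108 dph, and 3 of the 16 older fish were at or below the highest young fish. Another gene named KDM4A, Nfu_g_1_006070, was no member and was not called at the early step (log2 fold change 0.07 ± 0.06 SE, edgeR FDR 0.433). Gene lists were counted in the same fit, in which 18.4% of the 7702 named genes tested were higher and 17.9% lower at 73 than at 39 dph, and 6.25% were higher and 7.57% lower at 108 than at 73 dph. The counts of each list, here and below, include its members, whose steps the rule set. All 10 members on pathway lists were among the genes called higher at the early step. The pathway lists held 845 genes, 10 of them members, beside 102 members among the 7716 genes with a name. These shares are close, so nothing is read from the number of members on the lists. The list of chromatin regulators held 85 tested genes, 2 of them members, KDM4A and PCGF3. Of the 85, 17 were higher and 23 lower at 73 than at 39 dph, and 7 were higher and 9 lower at 108 than at 73 dph, with median log2 changes of 0.01 and 0.01. Without the 2 shallowest libraries 15 in place of 23 were lower at the early step. A gene named KDM6B, but given DNAH2 as its human match, was lower at 73 than at 39 dph (log2 fold change -0.45 ± 0.12 SE, edgeR FDR 0.00766), a call that was lost without the 2 shallowest libraries (-0.32 ± 0.12 SE, edgeR FDR 0.0594). JARID2B, whose product joins Polycomb complex 2 to chromatin, rose more than any member between 39 and 73 dph (log2 fold change 2.34 ± 0.11 SE, edgeR FDR 1.03e-12) but was no member, since it fell by 0.70 log2 afterwards (SE 0.11, edgeR FDR 3.12e-04). CBX7A, a reader of Polycomb marks, rose at both steps, by 0.75 ± 0.08 and 0.51 ± 0.08 log2 (SE, edgeR FDR 7.43e-07 and 3.53e-04). EZH1 and EZH2 are alternative methyltransferases of Polycomb complex 2. Of the genes named EZH1, Nfu_g_1_007672, matched to human EZH1, rose at the early step by 0.43 log2 (edgeR FDR 2.67e-06) and Nfu_g_1_007567, matched to human EZH2, by 0.39 log2 (edgeR FDR 2.69e-04). The gene named EZH2 was not called (log2 fold change -0.16 ± 0.10 SE, edgeR FDR 0.287).

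**Figure D3:**
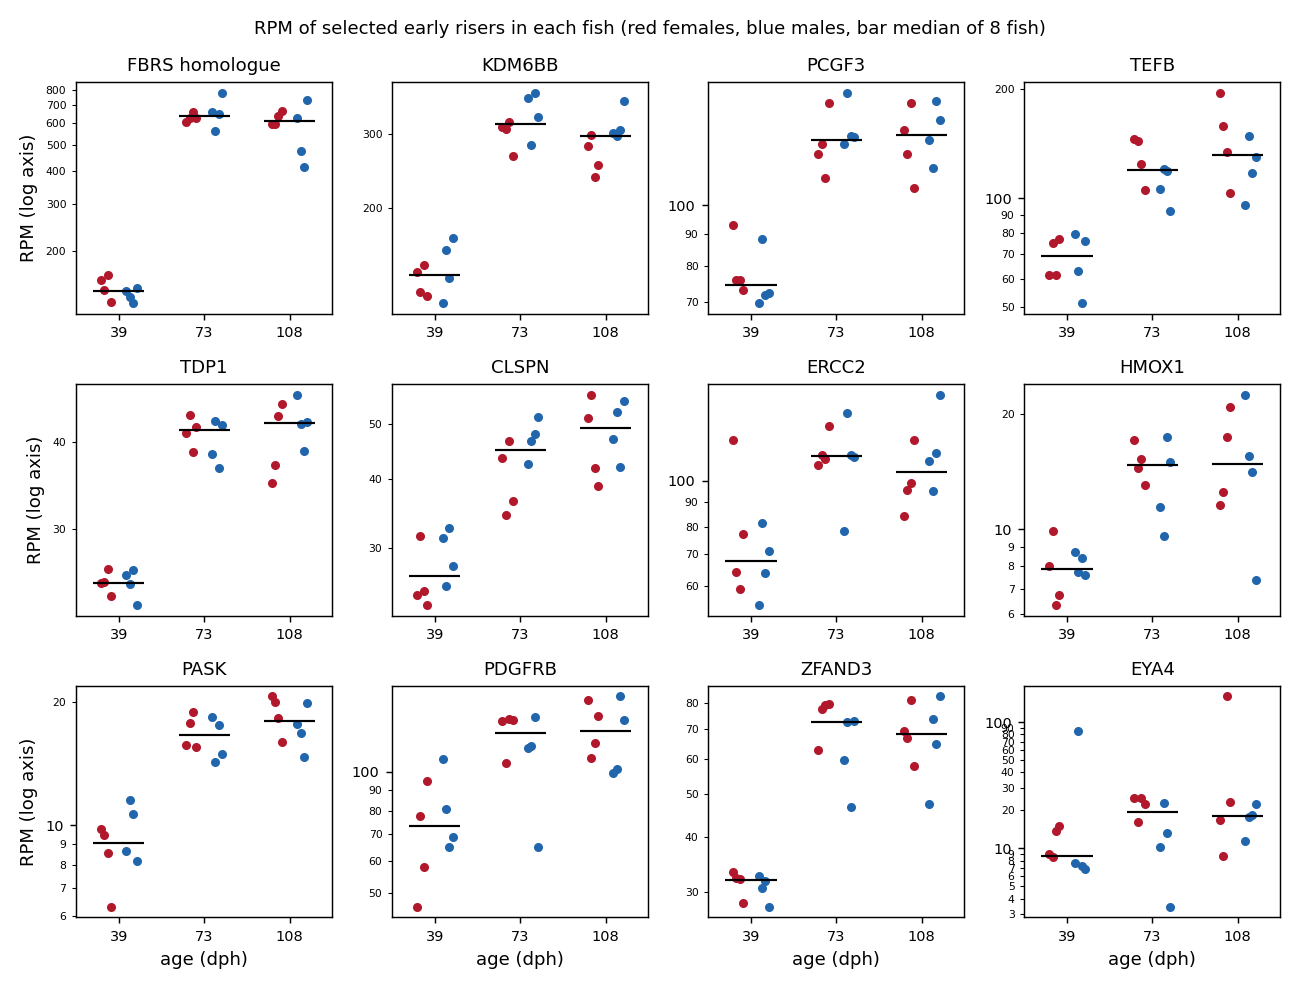
RPM (log axis, scaled per panel) of 12 early risers in each fish by age in dph, females in red and males in blue, with bars at the median of 8 fish. In the FBRS homologue, KDM6BB, PCGF3, TEFB, TDP1, CLSPN, PASK and ZFAND3 all fish of 73 and 108 dph lie above those of 39 dph, and in EYA4 single fish reach 85.9 RPM at 39 dph and 160.2 RPM at 108 dph.

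Members that handle DNA included repair enzymes and replication factors. TDP1, which frees DNA from stalled topoisomerase I, was among the least variable members and stood at 23.3, 25.1 and 26.2 RPM at 39 dph, 36.7, 41.7 and 43.7 RPM at 73 dph and 34.9, 42.6 and 46.8 RPM at 108 dph. All young fish lay below all older fish, and the within-age SD was 0.10 on the log2 scale. CLSPN, the adaptor through which the kinase ATR activates CHEK1 at stalled forks, measured 23.7, 26.7 and 32.7 RPM at 39 dph, 34.4, 45.0 and 51.6 RPM at 73 dph and 38.8, 49.2 and 56.5 RPM at 108 dph. PMS1, a mismatch repair protein of the MutL family, measured 33.7, 39.0 and 47.6 RPM at 39 dph, 52.3, 66.1 and 75.7 RPM at 73 dph and 56.9, 65.2 and 82.9 RPM at 108 dph. Young and older fish did not overlap in either gene. MCM8, a helicase of homologous recombination, was rarer and measured 2.16, 3.74 and 6.37 RPM at 39 dph, 3.57, 8.43 and 11.5 RPM at 73 dph and 5.20, 9.22 and 10.5 RPM at 108 dph, with 2 of the older fish within the young range. ERCC2, the XPD helicase of the transcription and excision repair factor TFIIH, measured 54.7, 67.6 and 122 RPM at 39 dph, 78.4, 113 and 139 RPM at 73 dph and 84.3, 104 and 152 RPM at 108 dph. Its overlap was wide, 13 of 16 older fish lying at or below the highest young one, and that value came from 39 dph female replicate 1, while the next young fish had 81.3 RPM. The medians of ALKBH2, which reverses alkylation damage, were 2.60, 4.69 and 5.19 RPM at the 3 ages. Those of CTC1, of the telomere-capping CST complex, were 3.62, 5.69 and 5.97 RPM.

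NCAPH2, a condensin II subunit that compacts chromosomes, appeared under a pair of neighbouring gene numbers, Nfu_g_1_002132 and Nfu_g_1_002133. By symbol both fall on 1 RefSeq gene, and whether they are pieces of 1 gene model was not tested. The first measured 5.88, 8.09 and 11.3 RPM at 39 dph, 12.0, 14.4 and 15.5 RPM at 73 dph and 9.99, 16.0 and 19.4 RPM at 108 dph. The second measured 3.48, 4.82 and 5.91 RPM at 39 dph, 6.17, 7.75 and 9.07 RPM at 73 dph and 4.99, 7.67 and 10.3 RPM at 108 dph. Of the DNA repair list, 27 genes were tested and ERCC2 was the only member. In that list 10 genes were higher and 5 lower at 73 than at 39 dph, and 7 were higher and 2 lower at 108 than at 73 dph. ATR rose by 0.63 ± 0.07 log2 (SE, edgeR FDR 9.72e-07) and by a further 0.28 ± 0.07 (edgeR FDR 0.0111), and PARP1 fell by 0.33 log2 at the early step (SE 0.06, edgeR FDR 5.75e-04).

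Heme and lipid peroxide metabolism was represented by 4 members. HMOX1, heme oxygenase, which opens the heme ring to biliverdin and iron and is matched to human HMOX2 in the study's tables, measured 6.34, 7.87 and 9.92 RPM at 39 dph, 9.61, 14.8 and 17.4 RPM at 73 dph and 7.40, 14.9 and 22.5 RPM at 108 dph. BLVRB, named as a biliverdin reductase, measured 13.7, 16.6 and 24.1 RPM at 39 dph, 23.8, 26.9 and 38.2 RPM at 73 dph and 18.8, 27.8 and 47.7 RPM at 108 dph. GPX4, a glutathione peroxidase that reduces lipid hydroperoxides, measured 6.37, 10.3 and 15.7 RPM at 39 dph, 13.5, 18.4 and 20.5 RPM at 73 dph and 10.0, 19.6 and 25.5 RPM at 108 dph. SLC7A11, the cystine importer that feeds glutathione synthesis, measured 4.80, 7.04 and 9.22 RPM at 39 dph, 8.73, 11.9 and 16.5 RPM at 73 dph and 5.68, 12.5 and 20.7 RPM at 108 dph. In each of the 4, between 2 and 3 of the older fish were at or below the highest young fish. The list of redox and iron genes held 24 tested genes, of which 9 were higher and 0 lower at 73 than at 39 dph and 4 higher and 0 lower at 108 than at 73 dph. The late count was 2 higher without 108 dph female replicate 4, 108 dph male replicate 2 or 73 dph male replicate 3. FTL, ferritin light chain, was among those that went on rising, by 0.46 ± 0.09 and then 0.30 ± 0.09 log2 (SE, edgeR FDR 5.06e-04 and 0.0285); the second call was lost without 108 dph female replicate 3 or without 73 dph female replicate 1. Beside these, the summed level of 5 erythrocyte markers moved with age, from 115 to 170.4 RPM at 39 dph, 164 to 284 RPM at 73 dph and 226 to 314 RPM at 108 dph, with none of the 5 at 0 in every fish. Their part in the result was not tested.

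Folate metabolism contributed GGH, MTHFD1L and FOLH1. GGH, which trims glutamates from stored folate, measured 5.40, 7.11 and 14.9 RPM at 39 dph, 12.2, 14.4 and 19.2 RPM at 73 dph and 11.2, 14.5 and 17.1 RPM at 108 dph, and 11 older fish lay at or below the highest young fish. MTHFD1L, a mitochondrial enzyme of formate production, had medians of 6.08, 11.5 and 12.5 RPM, with no overlap between young and older fish. FOLH1, a carboxypeptidase that cleaves folate polyglutamates and N-acetylaspartylglutamate, had medians of 11.8, 18.4 and 19.1 RPM, and 15 older fish overlapped the young.

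PTCH1, a patched receptor that binds Hedgehog ligands and is itself induced by the pathway in vertebrates, was expressed at a low level, with 0.794, 1.77 and 2.83 RPM at 39 dph, 2.34, 3.02 and 3.69 RPM at 73 dph and 2.46, 3.37 and 4.38 RPM at 108 dph. Per length, its median at 73 dph was 0.714 RPM per kilobase of gene length (RPKM). PDGFRB, the receptor of pericytes on brain capillaries, measured 46.1, 73.1 and 108 RPM at 39 dph, 64.9, 125 and 137 RPM at 73 dph and 99.4, 126 and 154 RPM at 108 dph, with 4 older fish in the young range. The 6 endothelial and pericyte markers, PDGFRB included, summed to 253 to 328 RPM at 39 dph, 292 to 361 RPM at 73 dph and 277 to 371 RPM at 108 dph. In that list 1 gene was higher and 2 were lower at 73 than at 39 dph, and 1 was lower without the 2 shallowest libraries. A homologue of SLC2A1 (CU694256.1), the glucose transporter of the blood-brain barrier, measured 20.6, 37.5 and 50.0 RPM at 39 dph, 43.5, 67.4 and 84.7 RPM at 73 dph and 55.3, 72.1 and 106 RPM at 108 dph.

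The circadian list held 2 members. According to the methods of the study all brains were dissected in the early morning. TEFB, a clock output factor of the PAR bZIP family, measured 51.3, 69.1 and 79.6 RPM at 39 dph, 92.5, 119.7 and 145 RPM at 73 dph and 95.6, 132 and 195 RPM at 108 dph, with no overlap between young and older fish. Its paralogue TEFA rose by 0.68 ± 0.09 log2 at the early step (SE, edgeR FDR 1.86e-05) and was not called at the late step (0.15 ± 0.09, edgeR FDR 0.34). RORB, an orphan nuclear receptor that activates clock genes, measured 8.48, 10.1 and 14.5 RPM at 39 dph, 12.4, 18.4 and 21.6 RPM at 73 dph and 10.3, 18.6 and 21.5 RPM at 108 dph. Of the 28 clock genes tested, 9 were higher and 6 lower at 73 than at 39 dph, and 1 was higher and 2 were lower at 108 than at 73 dph, with 2 higher without 108 dph male replicate 3, 39 dph female replicate 1 or 73 dph female replicate 2.

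Other regulators of transcription among the members included EYA4, LIN52 and RUNX1. EYA4, a coactivator with phosphatase activity, measured 6.89, 8.74 and 85.9 RPM at 39 dph, 3.44, 19.4 and 25.3 RPM at 73 dph and 8.77, 18.1 and 160.2 RPM at 108 dph. Its high values came from single fish, 39 dph male replicate 2 and 108 dph female replicate 3, and its within-age SD of 1.12 log2 was the largest of all members. The rise of its median was not found in the edgeR fit, where its change from 39 to 73 dph was -0.31 ± 0.63 log2 (SE, edgeR FDR 0.776). LIN52, a subunit of the DREAM complex that represses cell cycle genes, measured 4.13, 6.63 and 8.51 RPM at 39 dph, 8.91, 10.4 and 12.3 RPM at 73 dph and 10.2, 11.3 and 13.9 RPM at 108 dph. In the RefSeq order of the assembly NfurGRZ-RIMD1, in which 63 members had 1 gene of the same symbol on 16 chromosomes, NOVA2, PRX, BLVRB and ERCC2 followed each other within 5, 3 and 9 protein-coding genes. RUNX1, a factor of blood cell formation, measured 2.58, 3.35 and 5.68 RPM at 39 dph, 5.80, 6.27 and 8.08 RPM at 73 dph and 4.12, 6.54 and 9.15 RPM at 108 dph.

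Genes known from blood and immune cells were expressed at low levels. CD22, matched to human SIGLEC1, both lectins of immune cells, measured 0.971, 1.56 and 3.57 RPM at 39 dph, 1.11, 5.04 and 5.43 RPM at 73 dph and 1.60, 4.61 and 8.99 RPM at 108 dph. C7, a protein of the terminal complement pathway, measured 2.72, 4.75 and 6.80 RPM at 39 dph, 5.69, 9.49 and 15.1 RPM at 73 dph and 4.97, 10.3 and 32.6 RPM at 108 dph. Its highest value at 108 dph was in 108 dph female replicate 1. The medians of GP1BB, a platelet glycoprotein subunit, were 3.38, 8.05 and 7.32 RPM, and those of KYNU, kynureninase of tryptophan breakdown, 1.11, 2.46 and 2.68 RPM. CTSK and ARSB, a lysosomal protease and a sulfatase, had medians of 20.4 and 2.34 RPM at 39 dph, 33.4 and 3.83 RPM at 73 dph and 34.2 and 4.03 RPM at 108 dph. They were the 2 members among 42 lysosomal genes tested, of which 15 were higher and 3 lower at 73 than at 39 dph and 5 higher and 2 lower at 108 than at 73 dph. At the late step 3 were higher and 1 lower without 108 dph female replicate 4 or without 73 dph female replicate 3, and the count of 2 lower fell to 1 without any of 12 fish. C7 was the only member among 6 genes of complement and antigen presentation, with 1 gene higher and 2 lower at the early step and 1 higher and 0 lower at the late step. The gene higher at the early step was C7 itself, and the gene higher at the late step was CD74B. The 2 lower fell to 1 without any of 8 fish, and the late call was lost without any of 17. Only 2 microglial markers had a name, CD74B and ITGB2, and their sum ran from 68.7 to 95.9 RPM at 39 dph, 61.3 to 76.6 RPM at 73 dph and 57.4 to 111 RPM at 108 dph. Their part in the result was not tested.

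The members that follow are on none of the lists. UNC80, a subunit of the NALCN sodium leak channel, measured 29.8, 36.7 and 52.3 RPM at 39 dph, 47.1, 64.7 and 90.5 RPM at 73 dph and 53.2, 69.8 and 119 RPM at 108 dph, and GRID1, a delta-type glutamate receptor, measured 6.09, 7.31 and 12.3 RPM at 39 dph, 8.72, 15.2 and 20.4 RPM at 73 dph and 13.9, 16.7 and 23.6 RPM at 108 dph. MLANA, a protein of melanosomes, measured 1.40, 2.65 and 4.50 RPM at 39 dph, 3.17, 6.05 and 8.29 RPM at 73 dph and 4.12, 6.14 and 10.1 RPM at 108 dph. GPR143, a receptor of melanosomes, measured 2.81, 3.12 and 4.60 RPM at 39 dph, 4.24, 5.12 and 6.79 RPM at 73 dph and 3.88, 4.84 and 6.43 RPM at 108 dph. PASK, a PAS-domain kinase, measured 6.31, 9.03 and 11.5 RPM at 39 dph, 14.3, 16.6 and 18.9 RPM at 73 dph and 14.7, 18.0 and 20.6 RPM at 108 dph, with no overlap between young and older fish, and the same separation held for ZFAND3, a zinc finger protein, at 27.7, 31.9 and 33.3 RPM at 39 dph, 46.6, 72.8 and 79.8 RPM at 73 dph and 47.4, 68.1 and 82.9 RPM at 108 dph. RBM26, an RNA-binding protein, stood at 137, 160.4 and 171 RPM at 39 dph, 223, 245 and 276 RPM at 73 dph and 232, 263 and 320.5 RPM at 108 dph, again without overlap. The further members of largest early step were RFESD (1.22 on the log2 scale), PRX (1.02), a homologue of ISLR2 (0.96), MYO1HA (0.91), CYP1B1 (0.91), NF2A (0.85) and FNDC5B (0.84).

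**Figure D4:**
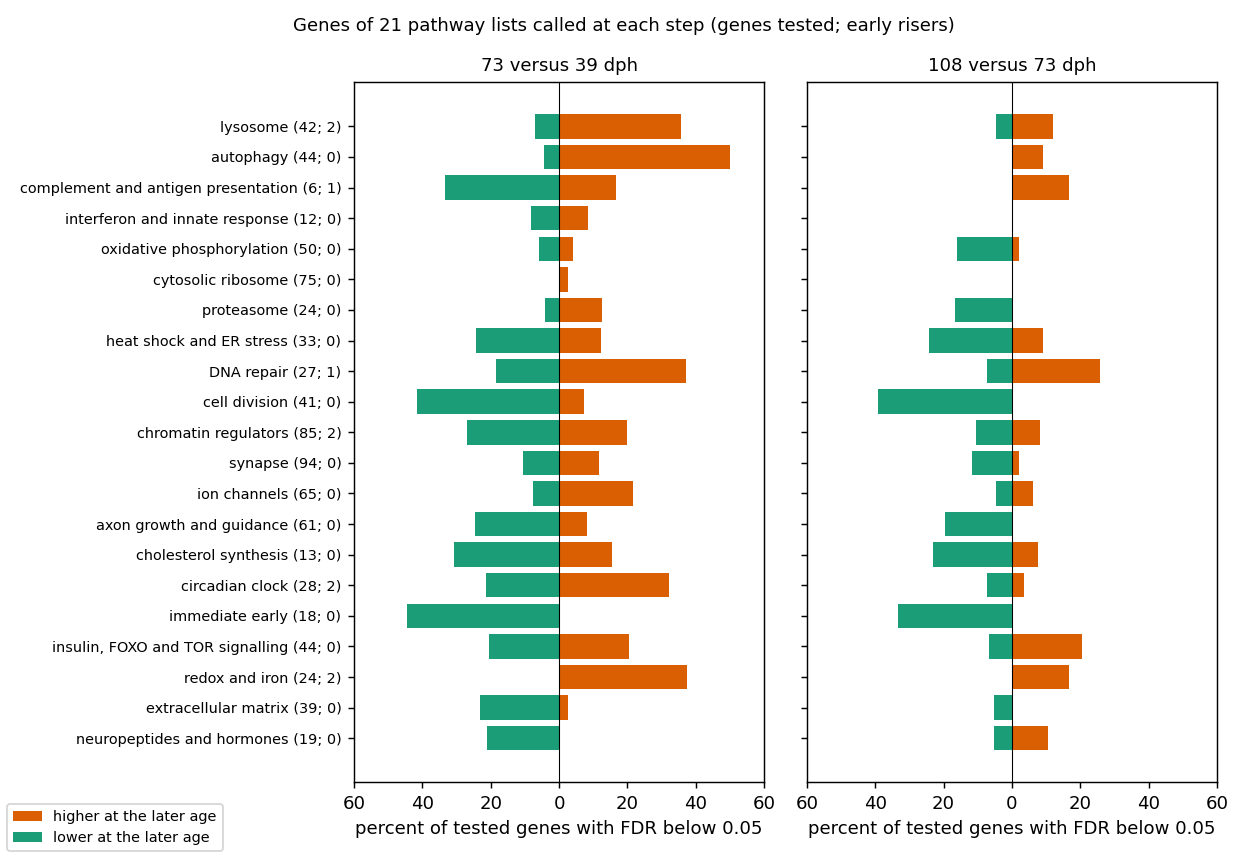
Percent of tested genes in 21 pathway lists called higher (orange, to the right) or lower (green, to the left) by edgeR at an FDR below 0.05, at 73 against 39 dph (left) and at 108 against 73 dph (right), with the number of genes tested and of early risers after each name. Redox and iron genes were called higher only, 9 and then 4 of 24. Of 75 cytosolic ribosome genes, 2 were called higher at the early step and 0 at the late step, with 0 lower. The percents include the early risers, and 6 of the lists hold early risers. These are 10 of 845 listed genes, beside 102 early risers among the 7716 genes with a name.

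Among the 48 members without a name, Nfu_g_1_001393 rose most, with 1.12, 2.02 and 3.13 RPM at 39 dph, 5.77, 9.04 and 16.2 RPM at 73 dph and 6.25, 9.32 and 22.1 RPM at 108 dph. All its young fish lay below all older ones. Nfu_g_1_002364 measured 6.98, 19.0 and 27.8 RPM at 39 dph, 17.4, 47.6 and 112 RPM at 73 dph and 11.6, 47.1 and 69.0 RPM at 108 dph. Nfu_g_1_003454 was, with DAZAP2 and TDP1, among the 3 steadiest members, at 45.5, 57.2 and 64.9 RPM at 39 dph, 105, 115 and 126 RPM at 73 dph and 111, 119 and 128 RPM at 108 dph. DAZAP2, a small adaptor protein, measured 104, 111 and 122 RPM at 39 dph, 168, 179 and 188 RPM at 73 dph and 144, 165 and 189.5 RPM at 108 dph. Nfu_g_1_021471 and Nfu_g_1_013858 were, with EYA4, the 3 most variable, with 2.18, 3.12 and 18.8 RPM at 39 dph, 2.47, 5.43 and 6.17 RPM at 73 dph and 2.70, 4.98 and 36.8 RPM at 108 dph for the first and 1.09, 3.87 and 36.0 RPM at 39 dph, 5.12, 6.54 and 25.3 RPM at 73 dph and 5.84, 7.30 and 31.7 RPM at 108 dph for the second. In the edgeR fit the change of Nfu_g_1_021471 from 39 to 73 dph was -0.06 ± 0.52 log2 (SE, edgeR FDR 0.952). Per length, the most abundant members over all fish were Nfu_g_1_018181, DAZAP2 and Nfu_g_1_003454, with medians of 248, 144 and 131 RPKM, and the least abundant were Nfu_g_1_006330, Nfu_g_1_020532 and Nfu_g_1_006021, with 0.429, 0.416 and 0.356 RPKM. Nfu_g_1_018181 measured 103, 109.9 and 225 RPM at 39 dph, 73.6, 185 and 415 RPM at 73 dph and 119.7, 184 and 494 RPM at 108 dph.

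The limit of 150 genes fell inside a dense stretch of early steps. The last genes taken were NEK8 and Nfu_g_1_024879, at 0.5802 and 0.5796, and the first left out were NUB1 and RFC3, at 0.5792 and 0.5786. At the limit of the late step, Nfu_g_1_013858 (0.148) and NCAPH2 (Nfu_g_1_002132, 0.149) were taken and Nfu_g_1_020461 (-0.153) and TNFRSF19 (0.155) were not. At the limit of the level, RFESD (1.03 RPM at its lowest age) and FNDC5B (1.08 RPM) were taken, and Nfu_g_1_012842 (0.987 RPM) and Nfu_g_1_010330 (0.968 RPM) were not. At the limit of the early step in each sex, Nfu_g_1_006330 (0.154) and Nfu_g_1_015938 (0.239) were taken, and Nfu_g_1_008325 (-0.04) and Nfu_g_1_016864 (-0.05) were not.

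Sex played no part in the choice beyond the sign of the early step, so females and males were compared within the same fit. No member was called between the sexes by edgeR at an FDR below 0.05, where 0.0517% of all genes (10 of 19358) were. At an unadjusted p below 0.05 there were 19 members, 11 higher in females and 8 higher in males, or 12.7% of the members beside 7.46% of all genes. DESeq2 called 1 member. The smallest p belonged to the homologue of SLC8B1 (FP103011.3), a mitochondrial sodium-calcium exchanger, which was that gene. Its median in females was 11.4, 17.6 and 21.3 RPM at the 3 ages and in males 9.48, 15.5 and 15.8 RPM. It was higher in females at each age, by 0.28 ± 0.07 log2 (SE, edgeR FDR 0.23), and over both sexes it measured 8.38, 10.5 and 12.0 RPM at 39 dph, 12.4, 16.7 and 19.4 RPM at 73 dph and 15.0, 18.4 and 25.2 RPM at 108 dph. SLC30A5, a zinc transporter, measured 71.8, 89.7 and 100.3 RPM at 39 dph, 88.1, 136 and 185 RPM at 73 dph and 124, 133 and 212 RPM at 108 dph. Its medians at 73 and 108 dph were 124 and 129 RPM in females and 160.4 and 156 RPM in males, a fitted difference of -0.30 ± 0.08 log2, female minus male (SE, edgeR FDR 0.384).

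The plateau was also compared between the sexes, as the interaction of the late step with sex. No member passed an edgeR FDR of 0.05, 0.00517% of all genes (1 gene) did, and 6 members had an unadjusted p below 0.05, or 4% beside 5.08% of all genes. The late step had opposite signs in the females and males of 80 members and the same sign in 70. The rule held the late step over both sexes together near 0, so nothing is read from this count. The smallest p belonged to NRBP1, a pseudokinase, which measured 12.8, 14.8 and 17.0 RPM at 39 dph, 20.8, 25.2 and 29.9 RPM at 73 dph and 21.1, 23.9 and 25.7 RPM at 108 dph. Its late step was -0.30 in females and 0.08 in males, a difference of -0.38 ± 0.13 log2 in the fit (SE, edgeR FDR 0.85). PLCH2, a phospholipase C of neurons, came next and measured 3.92, 6.73 and 9.48 RPM at 39 dph, 5.19, 11.6 and 15.0 RPM at 73 dph and 7.33, 11.0 and 18.6 RPM at 108 dph. Its late step was -0.34 in females and 0.34 in males (difference -0.90 ± 0.35 log2, SE, edgeR FDR 0.951). With 4 fish per group a plateau in both sexes together does not show a plateau in each.

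Reads assigned to genes ranged from 4595506 to 19346170 per library, and the 2 shallowest, 39 dph female replicate 4 and 39 dph male replicate 4, were both young. The other 22 libraries had at least 14219725. Neuronal markers summed to 4722 to 5725 RPM over all fish and none was at 0 in every fish. The 4 markers of meninges and fibroblasts, none at 0 in every fish, summed to 67.7 to 864 RPM at 39 dph (median 279), 62.3 to 118 RPM at 73 dph (median 85.2) and 47.5 to 117 RPM at 108 dph (median 80.2), and 2 of the 4, both collagen genes, were called lower at 73 than at 39 dph. The 1 marker of retina and pineal, RPE65, had medians of 28.8, 22.1 and 18.6 RPM. The part of both in the results was not tested. Prolactin, a pituitary hormone, exceeded 1000 RPM in 3, 2 and 3 fish of 39, 73 and 108 dph, at 1679 to 4312 RPM, and stayed at or below 60.8 RPM in the other 16. Without the 8 fish of high prolactin the early step of the 150 members had a median of 0.73 and a lowest value of 0.25. Only 72 of the 150 were kept as members under that setting. Without the 2 shallowest libraries the median was 0.70 and the lowest value 0.28. Under TMM and DESeq2 scaling the median early step of the members was 0.70 and 0.71, and no member fell to 0. Members were chosen for a large step in these same fish, so steps above 0 are largely set by the rule and carry no test.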

How the data were processed

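Poly(A) RNA of whole brain was measured in 24 wild fish, grouped by the age and sex in the labels. The paper states a smaller number of samples than these 24, all of which were used here. According to the submitters' processing notes and the methods of the study, stranded single-end reads were converted with bcl2fastq 1.8.4, mapped with TopHat2 2.1.0 to the hardmasked NFINgb genome, with at most 1 place reported per read, and counted on the sense strand with featureCounts 1.5.0. Genes with near-identical copies can thus have lost or gained reads. The deposited counts are these raw reads per gene. The deposited RPM are those counts scaled to 1000000 reads assigned to genes, which they equalled to within 4.91e-11. The deposited RPKM are further divided by gene length, and served only for levels between genes. Dates of library preparation were not given in the sources used here, so batches could not be examined.

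Members were found from the RPM with a pseudocount of 0.5 in Python 3.11.15. Counts were tested with the edgeR 4.0.16 quasi-likelihood test in R 4.3.3, after filterByExpr with a minimum count of 10 and TMM scaling, with sex and age as additive terms and 6 group means for the late step by sex. FDR is the Benjamini-Hochberg adjusted p, called below 0.05, and SE is the standard error of a log2 fold change. The functions were tested on simulated data. DESeq2 1.42.0 was an alternative.

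The members and the gene lists were chosen with earlier results of these data known. Genes described are the 25 named members of largest early step, all members on a list, those next to a limit of the rule, the steadiest and most variable, the most and least abundant, and those of smallest p for sex or for the late step by sex. The others were chosen for their role after their values were seen. A few genes that these rules take are not reported here. Gene IDs were paired with names by the tables of the study, 7716 IDs in all. No ID matched the RefSeq gene table, and that table was used, by symbol, only for the order of genes.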

Additional observations from a re-analysis of the deposited data

Results flagged for a closer look

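Single fish stood apart from the other 7 of their age in 18 of 135 checks (Dixon's gap ratio, in 44 members at each age and in the median over the members). Chance would flag about 1 in 20, or 6.75 checks, in genes not chosen by their values. The 44 members include EYA4, Nfu_g_1_021471 and Nfu_g_1_013858, chosen for the largest spread between fish, so the 18 cannot be set against that rate. The median over the members was 0.11 on the log2 scale in 39 dph female replicate 1 and -0.04 to 0.02 in the other young fish. The FBRS homologue stood at 779 RPM in 73 dph male replicate 4, against 563 to 663 RPM in the others of that age. PDGFRB stood at 64.9 RPM in the same fish, against 105 to 137 RPM in the others of that age. KDM4A stood at 42.2 RPM in 108 dph male replicate 1, against 74.2 to 99.8 RPM in the others of that age. EYA4 stood at 85.9 RPM in 39 dph male replicate 2, against 6.89 to 15.0 RPM in the others of that age. EYA4 stood at 160.2 RPM in 108 dph female replicate 3, against 8.77 to 23.4 RPM in the others of that age. ERCC2 stood at 122 RPM in 39 dph female replicate 1, against 54.7 to 81.3 RPM in the others of that age. BLVRB stood at 38.2 RPM in 73 dph female replicate 1, against 23.8 to 29.1 RPM in the others of that age. The SLC2A1 homologue stood at 106 RPM in 108 dph male replicate 3, against 55.3 to 77.9 RPM in the others of that age. GRID1 stood at 12.3 RPM in 39 dph male replicate 3, against 6.09 to 8.58 RPM in the others of that age. CD22 stood at 3.57 RPM in the same fish, against 0.971 to 2.14 RPM in the others of that age. GRID1 stood at 23.6 RPM in 108 dph female replicate 1, against 13.9 to 18.1 RPM in the others of that age. C7 stood at 32.6 RPM in the same fish, against 4.97 to 13.9 RPM in the others of that age. Nfu_g_1_021471 stood at 36.8 RPM in the same fish, against 2.70 to 7.27 RPM in the others of that age. Nfu_g_1_013858 stood at 31.7 RPM in 108 dph male replicate 4, against 5.84 to 10.4 RPM in the others of that age. SLC30A5 stood at 212 RPM in the same fish, against 124 to 157 RPM in the others of that age. Nfu_g_1_021471 stood at 18.8 RPM in 39 dph male replicate 4, against 2.18 to 3.93 RPM in the others of that age. RUNX1 stood at 5.68 RPM in 39 dph male replicate 1, against 2.58 to 3.92 RPM in the others of that age. None of these values was left out of the medians, and their causes were not tested.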

How the results depend on the processing

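No paired analysis was possible because each age and sex holds different fish and the fish numbers only name them. The number of genes passing the rule stayed between 320 and 539 under the other settings, with 454 in the main analysis, except that a late step within -0.1 to 0.1 left 292. Leaving out 1 fish gave 420 to 501. Of the 150 members, 110 to 136 were kept without 1 fish, 98 with a median of at least 5 RPM, 89 with the mean over fish and 72 without the 8 fish of high prolactin, a setting chosen after seeing the data. The remaining settings kept 100 to 140, and 51 members were among the 150 whichever single fish was left out. Before the limit of 150 was applied, 74 of the 150 members passed the rule whichever single fish was left out. Which genes are members thus depends on the setting and on single fish, and not only next to the limit of 150.

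No member was called between the sexes by edgeR under any setting, and DESeq2 called 1. None was called for the late step by sex under any setting. Of 845 listed pathway genes, 275 were called at 73 against 39 dph, 234 to 293 without 1 fish, and 165 without the fish of high prolactin, where 16 fish remain. The counts of genes called higher at 73 dph then fell from 10 to 5 for DNA repair, from 17 to 7 for chromatin regulators and from 15 to 9 for lysosomal genes. The counts lower at 73 dph fell from 17 to 11 for cell division, from 8 to 5 for immediate early genes, from 9 to 5 for extracellular matrix and from 2 to 0 each for the complement and the endothelial lists. At the late step the higher counts fell from 7 to 1 for DNA repair, from 7 to 2 for chromatin regulators, from 5 to 0 for lysosomal genes, from 4 to 1 each for redox and autophagy genes, and from 1 to 0 each for clock and complement genes. The late lower counts fell from 16 to 0 for cell division, from 9 to 2 for chromatin regulators, from 6 to 0 for immediate early genes, from 2 to 0 for lysosomal genes and from 2 to 1 each for DNA repair and clock genes. DESeq2 called 11 DNA repair genes and 2 clock genes higher at the late step. The pathway genes named above as called at the early step kept that call without any 1 fish. ATR and FTL lost their late call without the fish of high prolactin. Members near 1 RPM rest on few reads in the library of 4595506 reads.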

Other observations

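Of the 21 pathway lists, 15 held no early riser. In the autophagy list, 22 of 44 tested genes were called higher and 2 lower at 73 than at 39 dph by edgeR, with a median log2 change of 0.19, and 4 were higher and 0 lower at 108 than at 73 dph. Without 73 dph female replicate 1, 4 were lower at the early step. Of the 41 cell division genes tested, 17 were called lower and 3 higher at the early step, and 16 lower and 0 higher at the late step. The late count was 9 without 108 dph female replicate 2 or without 73 dph female replicate 1, 10 without 108 dph female replicate 3, 108 dph male replicate 2 or 73 dph female replicate 4, and 0 without the 8 fish of high prolactin. Immediate early genes, which neurons transcribe within minutes of activity, were called lower in 8 of 18 at the early step and in 6 at the late step, with 0 higher at either. Without the fish of high prolactin these counts were 5 and 0. Of the extracellular matrix genes, 9 of 39 were lower and 1 was higher at 73 than at 39 dph, with 2 higher without 39 dph male replicate 1, 73 dph male replicate 1 or 73 dph male replicate 4.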
